A study of Mus musculus with 17 samples.

Results

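Neutrophils are white blood cells that mature in the bone marrow in a fixed order of stages, and 37 genes of that maturation were followed in whole mouse lungs. They were chosen by name, as genes of the granules, the surface receptors, the NADPH oxidase and the transcription factors of the neutrophil line, together with enzymes and secreted products made by mature neutrophils. Of these, 36 were found among the 24327 genes of each deposited expression table, and Ly6g was not analysed here. They comprise 4 primary granule genes, 8 secondary and gelatinase granule genes, 10 surface receptor and membrane protein genes, 4 NADPH oxidase genes, 3 transcription regulator genes and 7 genes of enzymes and other products.

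Bulk RNA was sequenced from 17 lung samples in 2 experiments. The first compared 3 libraries labelled LysMcre;Nlrp3A350V, called Nlrp3 mutant here, with 3 libraries labelled control, called Control. The second held 4 libraries labelled LysMcre;Nlrp3A350V;Il181r-/-, called Il18r1 null mutant, 3 labelled LysMcre;Nlrp3A350V;Il181r+/-, called Il18r1 het mutant, and 4 labelled Il18r1 control. Nlrp3 encodes the sensor of an inflammasome, a complex that activates caspase-1 and through it the cytokines IL-1β and IL-18, and A350V is a change known to activate it. LysMcre expresses the recombinase Cre from the Lyz2 locus, which is active in macrophages, monocytes and neutrophils, so both mutant groups of the second experiment and the Nlrp3 mutant of the first carry the allele in cells of the lineage described. Il18r1 encodes the IL-18 receptor chain that binds the cytokine. The labels give neither age nor sex. Which alleles the 2 control groups carry is not stated. Whether each library came from its own animal is not stated either, so a p-value here covers the spread between libraries, which may be technical.

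Neutrophil granules are filled in the order in which their proteins are made. Primary (azurophil) granules form in promyelocytes and hold myeloperoxidase and serine proteases. Secondary (specific) granules form later, in myelocytes and metamyelocytes, under the transcription factor C/EBP epsilon, and hold lactoferrin and cathelicidin; gelatinase granules and secretory vesicles with surface receptors follow in nearly mature cells. The mRNA of the primary granule proteins is largely gone from neutrophils that have left the marrow, while that of receptors and of the NADPH oxidase, which makes superoxide in the phagosome, is kept or gained. Several genes in the set are also read in other cells: the oxidase subunits in macrophages, Hdc in mast cells and basophils, and G0s2 in many tissues.

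Values are FPKM, a count of fragments per length of transcript and per size of the library, so levels can be set side by side between genes within a table. The summed FPKM of a library was 462421 to 559152, with 13147 to 13450 genes at 1 FPKM or more. Taking the depth of a table's first library as 1, the least deep library was at 0.788 in the first table and 0.750 in the second, whose deepest was at 1.15. The lung epithelial genes Sftpc and Scgb1a1 were at 8438 FPKM or more in every library. Nlrp3 was at 2.73 to 3.14 FPKM in Nlrp3 mutant and 0.973 to 1.39 FPKM in Control libraries. Il18r1 was at 6.98 to 9.00 FPKM in the null mutant, 29.9 to 31.2 FPKM in the het mutant and 13.4 to 15.0 FPKM in the Il18r1 control, so transcripts of the gene were still counted in the null mutant. Xist stood at 37.7 to 45.8 FPKM in all 3 Nlrp3 mutant and all 3 het mutant libraries and below 1 FPKM in all 7 control libraries, which carried 48.0 to 58.7 FPKM of Y-linked transcripts. Null mutant replicates 2 and 4 carried Xist and replicates 1 and 3 Y-linked transcripts. Genotype and sex-linked transcripts therefore cannot be told apart where the Nlrp3 mutant or the het mutant is set against its control.

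The set as a whole was higher in Nlrp3 mutant lungs. Its summed level was 3304, 2067 and 2709.9 FPKM in the 3 Nlrp3 mutant libraries, against 475, 428 and 749 FPKM in the 3 Control libraries, so every mutant library lay above every Control library. Of the 36 genes, 31 passed the filter on low values, 26 of them rose and 0 fell (limma, adjusted p under 0.05). In 1 of the 31, Prok2, every Control library was under 1 FPKM, so it passed the filter only through the Nlrp3 mutant. Over all genes tested, 28.0% rose and 27.6% fell in this comparison. The median log2 fold change was 1.92 over the tested members and 0.0023 over all tested genes. Without the filter 28 of 36 rose, against 21.2% of all genes, and the median was 1.77. The Nlrp3 mutant libraries were all above the Control libraries for 28 of the 36 members, against 32.2% of all tested genes. The 5 tested members that did not pass were Camp, Trem3, Hdc, G0s2 and Cybb. Elane, Mpo, Ctsg, Fcnb and Gfi1 were too low to be tested. In bulk tissue, fewer cells of a type and less RNA per cell cannot be told apart, so none of these values says how many neutrophils a lung held.

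In the second experiment the set stood high in het mutant lungs and nearer to control in null mutant lungs. The summed level was 1070.5, 1028, 1161 and 845 FPKM in the 4 null mutant libraries, 3567, 5699.5 and 3320.2 FPKM in the 3 het mutant libraries, and 541, 493, 494 and 546 FPKM in the 4 Il18r1 control libraries. The 3 groups did not overlap, with the null mutant between the het mutant and the control. In het mutant against control, 32 of 33 tested members rose and 0 fell, where 27.3% of all tested genes rose and 28.9% fell. In null mutant against control, 27 of 33 rose and 0 fell, where 1.87% of all tested genes rose and 0.102% fell. In null mutant against het mutant, 30 of 33 fell and 0 rose, where 26.5% of all tested genes fell and 26.8% rose. These 3 comparisons share libraries and are not independent of each other.

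The median log2 fold change of the tested members was 2.97 in het mutant against control, 1.21 in null mutant against control and -1.54 in null mutant against het mutant, and over all tested genes it was -0.017, -0.0079 and 0.0066. In 8 of the 33 tested members every control library was under 1 FPKM, so these passed the filter only through a group in which they were higher. They were Prtn3, Ctsg, Fcnb, Itgb2l, Cebpe, Padi4, Prok2 and Slfn4. Of these, Ctsg and Fcnb reached 1 FPKM only in het mutant libraries. Without the filter, 33 of 36 rose in het mutant against control (21.8% of all genes), 26 of 36 rose and 0 fell in null mutant against control (1.18% and 0.0618%) and 32 of 36 fell in null mutant against het mutant (20.6%). All null mutant libraries were above all control libraries for 30 of the 36 members, where this held for 5.06% of tested genes and the reverse, seen in 0 members, for 3.40%. All het mutant libraries were above the control for 34 members, against 27.4% of tested genes, and all null mutant libraries were below the het mutant for 31, against 26.0%. Without the 2 null mutant libraries that carry Xist, 24 members rose in null mutant against control, and Prtn3, Padi4, Pygl and Olfm4 no longer passed (adjusted p = 0.0825, 0.116, 0.10 and 0.0613 by limma). Their log2 fold changes were 0.78, 0.72, 0.66 and 1.76 with these 2 null mutant libraries, against 0.81, 0.68, 0.63 and 1.80 with all 4, and Cybb newly passed at 0.82 (adjusted p = 0.0129 by limma). Without the 2 null mutant libraries that carry Y-linked transcripts, 30 members fell against the het mutant. Over all genes, 170 to 303 rose in null mutant against control across its 15 alternatives. Across the 14 of null mutant against het mutant, 2712 to 3991 of all genes fell.

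**Figure D1:**
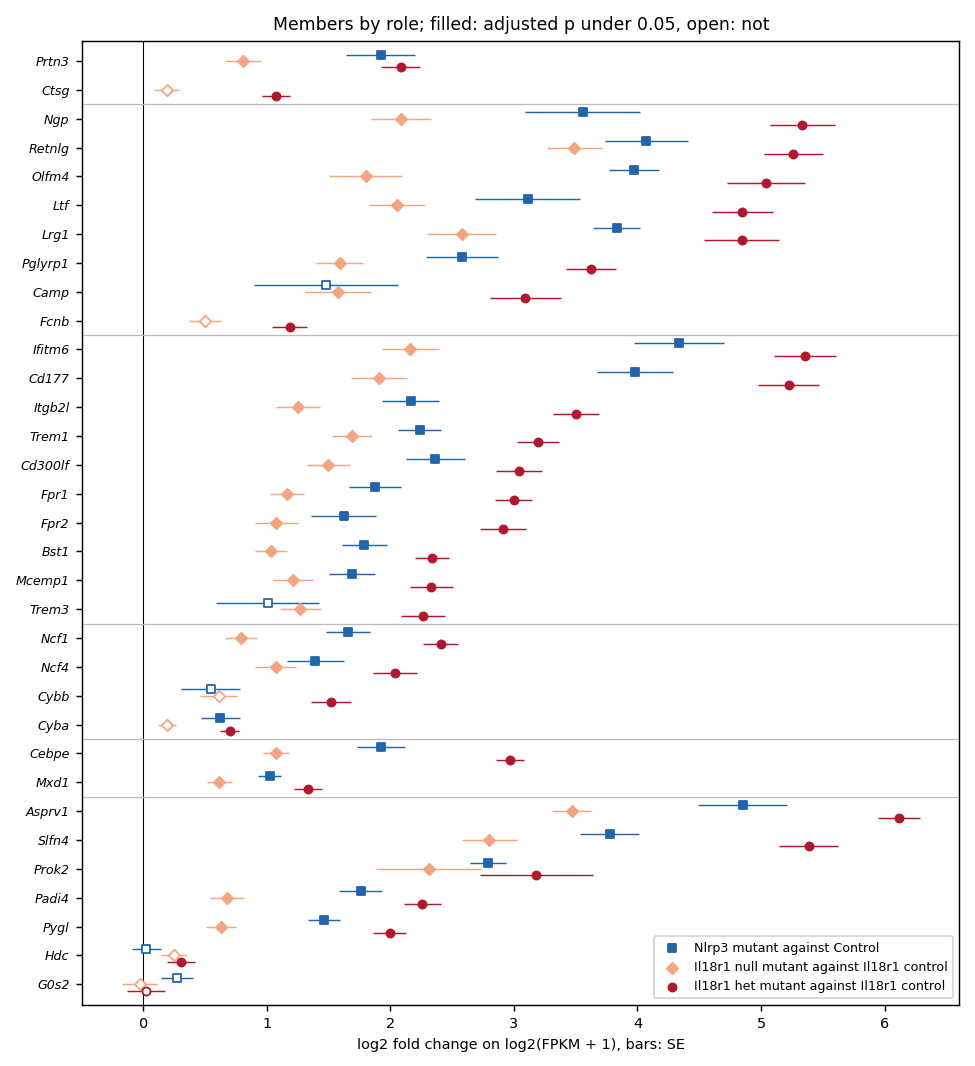
Log2 fold change on the log2(FPKM + 1) scale (x axis) with its standard error (bars) for the members tested in the second experiment (y axis), separated by role with the primary granule at the top. Squares stand for Nlrp3 mutant against Control, diamonds for null mutant against Il18r1 control and circles for het mutant against Il18r1 control; open symbols did not pass. Hdc and G0s2, at the bottom, lie near 0 in all 3 comparisons.

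Primary granule genes were low in all groups, and their most abundant member was Prtn3, which encodes proteinase 3. Prtn3 was at 6.90, 4.02 and 5.39 FPKM in Nlrp3 mutant libraries and 0.310, 0.356 and 1.63 FPKM in Control libraries. All 3 mutant libraries were above the Control libraries, of which replicate 3 was the highest. The log2 fold change was 1.92 ± 0.28 (SE, adjusted p = 8.02e-04). In the second experiment Prtn3 stood at 2.12, 1.64, 1.59 and 2.35 FPKM in the null mutant and 6.24, 7.94 and 4.39 FPKM in the het mutant. Prtn3 was at 0.484, 0.740, 0.863 and 0.582 FPKM in the Il18r1 control. The groups did not overlap, and the log2 fold change was 0.81 ± 0.15 (SE, adjusted p = 0.0103) in null mutant against control and -1.28 ± 0.16 (SE, adjusted p = 3.98e-05) in null mutant against het mutant.

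Elane, the gene of neutrophil elastase, starts 3.1 kb beyond the end of Prtn3 on chromosome 10, yet no library reached 1 FPKM. Elane was at 0.585, 0.0981 and 0 FPKM in Nlrp3 mutant and 0.0834, 0.286 and 0.206 FPKM in Control libraries, which overlapped. It was at 0, 0.227, 0 and 0.280 FPKM in the null mutant and 0.241, 0.555 and 0.386 FPKM in the het mutant. Elane was at 0, 0.113, 0.0958 and 0.0525 FPKM in the Il18r1 control. Mpo, which encodes myeloperoxidase, reached at most 1.25 FPKM, in a het mutant library, and averaged 0.979 ± 0.176 FPKM in Nlrp3 mutant and 0.241 ± 0.253 FPKM in Control libraries (SD, n = 3 each). Ctsg, which encodes cathepsin G, was at 0.181, 0.355, 0.170 and 0.351 FPKM in the null mutant and 1.56, 1.27 and 1.17 FPKM in the het mutant. Ctsg was at 0.0516, 0, 0.200 and 0.186 FPKM in the Il18r1 control. Null mutant and control overlapped for Ctsg, and the het mutant lay above both, with a log2 fold change of 1.07 ± 0.11 (SE, adjusted p = 7.12e-06) against control and -0.89 ± 0.11 (SE, adjusted p = 4.05e-05) for null mutant against het mutant. Only its het mutant libraries reached 1 FPKM, so Ctsg passed the filter only through the group where it was high. At such levels the log2(FPKM + 1) scale understates a change. In the authors' deposited table of het mutant against control, made from read counts, Elane had a log2 fold change of 2.15 (SE 0.864, adjusted p = 0.0299) at a mean count of 6.20, Mpo one of 3.05 (SE 0.482, adjusted p = 1.96e-09) at 36.1 and Ctsg one of 3.25 (SE 0.610, adjusted p = 5.70e-07) at 19.4. In the authors' null mutant against control, Elane (0.82, SE 0.969, adjusted p = 0.883) and Mpo (1.02, SE 0.585, adjusted p = 0.537) did not pass. In the authors' null mutant against het mutant, Mpo (-2.04, SE 0.426, adjusted p = 9.47e-06) and Ctsg (-2.60, SE 0.488, adjusted p = 6.77e-07) fell. Elane did not pass there (-1.34, SE 0.859, adjusted p = 0.206).

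Secondary and gelatinase granule genes had the largest summed level of the roles in the Nlrp3 mutant and the het mutant. Of the 8, 7 were tested and 6 rose in Nlrp3 mutant against Control (28.0% of all tested genes). All 8 rose in het mutant against control (27.3%) and 7 rose in null mutant against control (1.87%). All 8 fell in null mutant against het mutant (26.5%). Their summed level was 946 to 1739 FPKM in Nlrp3 mutant and 82.3 to 251 FPKM in Control libraries. In the second experiment it was 278 to 482 FPKM in the null mutant, 1844 to 3429 FPKM in the het mutant and 62.2 to 95.5 FPKM in the Il18r1 control.

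Ngp, Ltf and Camp encode proteins of the specific granule whose genes depend on C/EBP epsilon, and they lie within 1169.8 kb of each other on chromosome 9. The 250 bases before the start of each are printed because these 3 genes are described in every library here and Cebpe, the gene of that factor, is a member too. The sequences are those of RefSeq on GRCm38.p6, read on the strand of the gene, and capitals mark the letters TTNNGCAA on either strand, a short form of the motif that C/EBP factors bind. The Camp stretch is chr9:109849457-109849706 on the minus strand, that of Ngp is chr9:110419558-110419807 on the plus strand and that of Ltf is chr9:111019042-111019291 on the plus strand.
Camp: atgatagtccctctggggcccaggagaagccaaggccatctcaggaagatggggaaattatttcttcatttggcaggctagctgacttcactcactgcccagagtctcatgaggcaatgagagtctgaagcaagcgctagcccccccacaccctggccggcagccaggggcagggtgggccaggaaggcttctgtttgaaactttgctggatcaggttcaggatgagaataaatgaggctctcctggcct
Ngp: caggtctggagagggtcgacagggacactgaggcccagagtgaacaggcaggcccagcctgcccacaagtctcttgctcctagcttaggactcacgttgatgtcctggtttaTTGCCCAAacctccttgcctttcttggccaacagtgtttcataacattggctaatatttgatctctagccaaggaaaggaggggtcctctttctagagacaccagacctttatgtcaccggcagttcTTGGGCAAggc
Ltf: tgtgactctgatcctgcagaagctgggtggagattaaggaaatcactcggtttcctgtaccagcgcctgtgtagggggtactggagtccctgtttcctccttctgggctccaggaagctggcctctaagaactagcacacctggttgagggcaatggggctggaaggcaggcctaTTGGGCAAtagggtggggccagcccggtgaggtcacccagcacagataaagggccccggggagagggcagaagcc
The motif was found at 2 places before Ngp, with its first base 138 and 11 bases before the start, at 1 place before Ltf, 75 bases before the start, and at none in the Camp window. Among the 32 members with a promoter in the RefSeq table, 5 held it (Fcnb, Gfi1, Ltf, Ngp and Retnlg), against 9.57% of all 32817 promoters of that length. The letters GAGGAAG, a short form of the motif of the myeloid factor PU.1, were in 8 members (Cd300lf, Ctsg, Elane, Itgb2l, Mpo, Olfm4, Pglyrp1 and Prtn3), against 10.6% of all promoters. Such matches only describe letters in these windows.

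Ngp, which encodes a neutrophil granule protein related to the cystatins, was the most abundant member in the Nlrp3 mutant and in the het mutant. It was at 829.5, 374 and 604 FPKM in Nlrp3 mutant libraries and 39.5, 27.1 and 101 FPKM in Control libraries. The lowest mutant library was replicate 2 and the highest Control library replicate 3, with no overlap, and the log2 fold change was 3.56 ± 0.46 (SE, adjusted p = 4.49e-04). Ngp was at 149.7, 108, 186 and 100.5 FPKM in the null mutant and 1064, 1874 and 1013 FPKM in the het mutant. Ngp was at 42.6, 30.6, 27.5 and 23.7 FPKM in the Il18r1 control. The 3 groups were apart, with het replicate 2 the highest library, and the log2 fold change was 5.33 ± 0.26 (SE, adjusted p = 2.80e-08) in het mutant against control, 2.08 ± 0.24 (SE, adjusted p = 4.88e-04) in null mutant against control and -3.25 ± 0.26 (SE, adjusted p = 1.94e-06) in null mutant against het mutant.

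Ltf encodes lactoferrin, the iron-binding protein by which secondary granules are recognised. It was at 174, 65.3 and 125 FPKM in Nlrp3 mutant and 9.21, 8.43 and 22.6 FPKM in Control libraries, without overlap. In the second experiment it was at 28.9, 20.6, 37.3 and 21.2 FPKM in the null mutant and 161, 273 and 151 FPKM in the het mutant. Ltf was at 6.51, 5.90, 6.52 and 3.74 FPKM in the Il18r1 control, again in 3 groups apart. The log2 fold change was 3.11 ± 0.42 (SE, adjusted p = 5.60e-04) in Nlrp3 mutant against Control, 2.05 ± 0.23 (SE, adjusted p = 3.15e-04) in null mutant against control and -2.80 ± 0.25 (SE, adjusted p = 3.50e-06) in null mutant against het mutant.

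Camp, the precursor of the antimicrobial cathelicidin peptide, did not pass in the first experiment. It was at 118, 34.8 and 77.8 FPKM in Nlrp3 mutant and 19.7, 12.0 and 56.8 FPKM in Control libraries. Control replicate 3 lay above mutant replicate 2, and the log2 fold change of 1.48 ± 0.59 (SE, adjusted p = 0.0624) did not pass. Without Control replicate 3 it was 2.09 and passed (adjusted p = 0.0106 by limma), and over the 11 alternatives the adjusted p ran from 0.0106 to 0.191. In the second experiment Camp was at 39.6, 30.4, 63.4 and 33.5 FPKM in the null mutant and 86.3, 178 and 103 FPKM in the het mutant. Camp was at 15.0, 16.1, 13.0 and 8.41 FPKM in the Il18r1 control, without overlap. It rose in both mutant groups, with a log2 fold change of 1.58 ± 0.27 (SE, adjusted p = 0.00679) in null mutant and 3.09 ± 0.29 (SE, adjusted p = 3.66e-06) in het mutant against control.

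Retnlg, a resistin-like secreted protein of mouse neutrophils, was at 202, 207 and 208 FPKM in Nlrp3 mutant and 10.8, 6.18 and 21.0 FPKM in Control libraries. The 3 mutant libraries were closer to each other than for any other granule gene named here with its library values. Retnlg was at 74.6, 80.4, 79.2 and 57.6 FPKM in the null mutant and 207, 424 and 176 FPKM in the het mutant. Retnlg was at 6.35, 5.24, 4.83 and 5.79 FPKM in the Il18r1 control, and the groups were apart. Its log2 fold change was 4.07 ± 0.34 (SE, adjusted p = 5.47e-05) in Nlrp3 mutant against Control and 3.49 ± 0.22 (SE, adjusted p = 3.68e-06) in null mutant against control. No other granule gene rose as much in null mutant against control.

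Olfm4, an olfactomedin carried by a subset of neutrophils, was at 77.4, 54.8 and 64.9 FPKM in Nlrp3 mutant and 2.97, 2.30 and 4.69 FPKM in Control libraries, with a log2 fold change of 3.97 ± 0.20 (SE, adjusted p = 8.60e-06). It was at 7.09, 7.98, 6.46 and 6.53 FPKM in the null mutant and 45.8, 162 and 55.2 FPKM in the het mutant. Olfm4 was at 1.52, 1.48, 1.06 and 1.15 FPKM in the Il18r1 control. The het mutant libraries differed among themselves, with replicate 2 the highest, and all of them were above the null mutant (log2 fold change -3.24 ± 0.32 (SE, adjusted p = 7.17e-06)). Lrg1, a leucine-rich glycoprotein that endothelium and liver also make, averaged 139 ± 31.5 FPKM in Nlrp3 mutant and 8.80 ± 1.97 FPKM in Control libraries (SD, n = 3 each), with a log2 fold change of 3.83 ± 0.19 (SE, adjusted p = 8.60e-06). It averaged 43.2 ± 15.7 FPKM in the null mutant and 202 ± 48.8 FPKM in the het mutant (SD, n = 4 and 3). Lrg1 averaged 6.10 ± 1.78 FPKM in the Il18r1 control (SD, n = 4). Pglyrp1, which binds bacterial peptidoglycan, rose in all mutant groups, with a log2 fold change of 2.58 in Nlrp3 mutant against Control, 1.59 in null mutant and 3.62 in het mutant against control. Fcnb, which encodes the lectin ficolin B, was low, at 0.798, 0.565, 0.998 and 0.977 FPKM in the null mutant and 1.60, 2.67 and 1.67 FPKM in the het mutant. Fcnb was at 0.384, 0.188, 0.450 and 0.173 FPKM in the Il18r1 control. It rose in het mutant against control (1.19 ± 0.14 (SE, adjusted p = 2.50e-05)), and null mutant against control did not pass (0.50 ± 0.13, SE, adjusted p = 0.10). Fcnb too reached 1 FPKM only in het mutant libraries of the second experiment, so it passed the filter there only through that group.

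**Figure D2:**
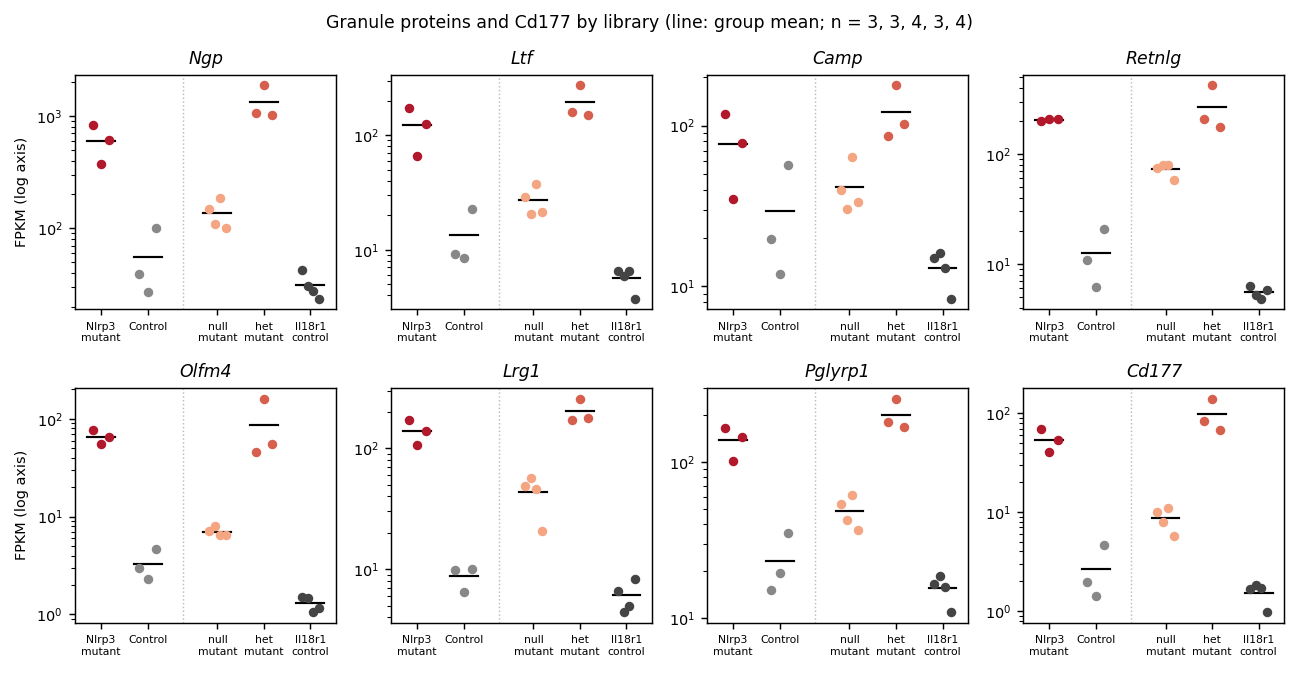
FPKM of 7 secondary and gelatinase granule genes and of Cd177 in each library (points, y axis on a log scale, its range differing between panels) with group means (lines). The first experiment is left of the dotted line and the second right of it, normalized separately; in the second, each null mutant library of these genes lies between the het mutant and the control libraries, while for Camp the Nlrp3 mutant and Control libraries overlap.

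Of the 10 genes of surface receptors and membrane proteins, 9 rose in Nlrp3 mutant against Control, where 28.0% of all tested genes rose, and Trem3 did not pass. All 10 rose in het mutant against control (27.3% of all tested genes) and in null mutant against control (1.87%), and all 10 fell in null mutant against het mutant (26.5%). Cd177, a surface protein anchored to a subset of neutrophils, was at 68.8, 41.0 and 53.2 FPKM in Nlrp3 mutant and 1.95, 1.42 and 4.66 FPKM in Control libraries. It was at 9.94, 7.88, 11.1 and 5.74 FPKM in the null mutant and 83.5, 141 and 67.7 FPKM in the het mutant. Cd177 was at 1.65, 1.82, 1.69 and 0.980 FPKM in the Il18r1 control. No groups overlapped, and the log2 fold change was 3.98 ± 0.31 (SE, adjusted p = 4.28e-05) in the first experiment, 1.91 ± 0.23 (SE, adjusted p = 5.19e-04) in null mutant against control and -3.31 ± 0.24 (SE, adjusted p = 1.03e-06) in null mutant against het mutant. Ifitm6, of the interferon-induced transmembrane family, had the highest level of the group, at 468, 301 and 381 FPKM in Nlrp3 mutant and 11.3, 14.1 and 34.5 FPKM in Control libraries. It was at 77.4, 54.4, 54.5 and 37.4 FPKM in the null mutant and 460.3, 742 and 374 FPKM in the het mutant. Ifitm6 was at 15.0, 11.0, 10.1 and 9.92 FPKM in the Il18r1 control. These were also apart, with a log2 fold change of 4.34 ± 0.36 (SE, adjusted p = 5.68e-05) in Nlrp3 mutant against Control, 2.16 ± 0.23 (SE, adjusted p = 2.68e-04) in null mutant against control and -3.19 ± 0.25 (SE, adjusted p = 1.63e-06) in null mutant against het mutant.

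The formyl peptide receptors Fpr1 and Fpr2, which guide neutrophils towards bacterial peptides and lie 3.9 kb apart on chromosome 17, had near-equal levels. Fpr1 averaged 39.3 ± 7.09 FPKM in Nlrp3 mutant and 10.2 ± 3.12 FPKM in Control libraries, and Fpr2 averaged 29.7 ± 5.53 FPKM and 9.41 ± 4.37 FPKM in the same groups (SD, n = 3 each). Their log2 fold changes were 1.87 and 1.62 (adjusted p = 2.10e-04 and 0.00127 by limma). In null mutant against het mutant both fell by 1.84 on the log2 scale (adjusted p = 2.06e-06 and 9.42e-06). Related receptors of the family lie nearby, and how reads shared between copies were counted is not given in the sources used here.

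Trem1 and Trem3, activating receptors that signal through the adaptor DAP12, lie 0.8 kb apart on chromosome 17 and differed in the first experiment. Trem1 was at 16.3, 12.4 and 13.7 FPKM in Nlrp3 mutant and 1.83, 1.74 and 3.20 FPKM in Control libraries, without overlap, with a log2 fold change of 2.24 ± 0.17 (SE, adjusted p = 4.25e-05). Trem3 was at 10.8, 4.38 and 7.28 FPKM in Nlrp3 mutant and 2.03, 1.77 and 6.68 FPKM in Control libraries. Control replicate 3 lay above mutant replicate 2, and the log2 fold change of 1.01 ± 0.41 (SE, adjusted p = 0.0711) did not pass. Without Control replicate 3 it was 1.48 and passed (adjusted p = 0.00611 by limma), and the adjusted p over the 11 alternatives was 0.00611 to 0.211. The difference between the 2 genes was not tested. In null mutant against control both rose, Trem1 by 1.69 and Trem3 by 1.27 on the log2 scale (adjusted p = 8.71e-05 and 9.93e-04).

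Itgb2l, an integrin chain of maturing neutrophils in mice, rose by 2.16 ± 0.23 (SE, adjusted p = 1.58e-04) on the log2 scale in Nlrp3 mutant against Control and fell to 2.33 ± 0.460 FPKM in the null mutant, against 15.4 ± 6.18 FPKM in the het mutant (SD, n = 4 and 3). Cd300lf, a receptor with inhibitory motifs, averaged 15.2 ± 3.25 FPKM in the null mutant and 46.6 ± 13.6 FPKM in the het mutant (SD, n = 4 and 3). Cd300lf averaged 4.66 ± 0.689 FPKM in the Il18r1 control (SD, n = 4). Bst1, a surface enzyme also known as CD157, averaged 21.2 ± 5.01 FPKM in Nlrp3 mutant and 5.39 ± 1.10 FPKM in Control libraries (SD, n = 3 each). Mcemp1, a membrane protein of myeloid cells and mast cells, averaged 38.4 ± 8.25 FPKM in Nlrp3 mutant and 11.2 ± 2.60 FPKM in Control libraries (SD, n = 3 each). In null mutant against control all 4 rose, with a log2 fold change of 1.25 for Itgb2l, 1.21 for Mcemp1 and 1.03 for Bst1.

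The NADPH oxidase joins a membrane pair, the catalytic subunit of Cybb and its partner of Cyba, with cytosolic subunits of Ncf1 and Ncf4 that organise and regulate it. In Nlrp3 mutant against Control 3 of the 4 genes rose (28.0% of all tested genes), and in het mutant against control all 4 rose (27.3%). In null mutant against control 2 rose (1.87%), and in null mutant against het mutant all 4 fell (26.5%). Ncf1 was at 56.1, 35.4 and 47.1 FPKM in Nlrp3 mutant and 13.1, 11.6 and 16.9 FPKM in Control libraries, without overlap (log2 fold change 1.66 ± 0.18 (SE, adjusted p = 1.69e-04)). It was at 21.3, 16.7, 20.5 and 20.7 FPKM in the null mutant and 55.4, 83.2 and 52.9 FPKM in the het mutant. Ncf1 was at 12.6, 10.8, 9.96 and 10.7 FPKM in the Il18r1 control. The 3 groups were apart, and null mutant against control gave 0.79 ± 0.13 (SE, adjusted p = 0.00551). Ncf4 averaged 10.2 ± 1.30 FPKM in the null mutant and 21.3 ± 5.96 FPKM in the het mutant (SD, n = 4 and 3). Ncf4 averaged 4.36 ± 1.10 FPKM in the Il18r1 control (SD, n = 4), with a log2 fold change of 1.07 ± 0.17 (SE, adjusted p = 0.00355) in null mutant against control.

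The membrane subunits had smaller log2 fold changes than the cytosolic ones in all 4 comparisons, a difference that was not tested. Cybb, on the X chromosome, was at 39.7, 20.5 and 30.0 FPKM in Nlrp3 mutant and 19.1, 15.6 and 25.2 FPKM in Control libraries. The groups overlapped, and the log2 fold change of 0.55 ± 0.24 (SE, adjusted p = 0.0865) did not pass; without Control replicate 3 it was 0.72 (adjusted p = 0.0482 by limma), and the adjusted p over 11 alternatives was 0.0128 to 0.250. In the second experiment Cybb was at 23.7, 13.6, 20.2 and 19.3 FPKM in the null mutant and 31.4, 45.4 and 33.1 FPKM in the het mutant. Cybb was at 12.8, 12.0, 10.8 and 12.4 FPKM in the Il18r1 control. The null mutant lay above the control in every library, and its log2 fold change of 0.61 ± 0.15 (SE, adjusted p = 0.0656) did not pass, while without null mutant replicate 2, the lowest of its group, it was 0.76 and passed (adjusted p = 0.00547), with a range of 0.00547 to 0.183 over 15 alternatives. Cyba was at 163, 157, 169 and 154 FPKM in the null mutant and 224, 261 and 204 FPKM in the het mutant. Cyba was at 150.5, 130.0, 137 and 144 FPKM in the Il18r1 control. The het mutant was the highest group, null mutant against control was 0.19 ± 0.072 (SE, adjusted p = 0.345) and did not pass, and null mutant against het mutant was -0.51 ± 0.078 (SE, adjusted p = 2.09e-04).

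Macrophages also make the oxidase, and markers of monocytes and macrophages moved in the same comparisons. Their summed level was 695 to 844 FPKM in Nlrp3 mutant and 291 to 379 FPKM in Control libraries, and 359 to 493 FPKM in the null mutant, 915 to 1055 FPKM in the het mutant and 309 to 345 FPKM in the Il18r1 control. Of 16 such markers, all tested, 11 rose in Nlrp3 mutant against Control (28.0% of all tested genes). In het mutant against control 15 rose (27.3%). In null mutant against control 5 rose (C1qb, C1qc, Ccr2, Ly6c2 and F13a1), against 1.87% of all tested genes. In null mutant against het mutant 15 fell and 1, Ccr2, rose (26.5% and 26.8%). None of the 16 was under 1 FPKM in every library, and their part in the oxidase values was not tested.

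**Figure D3:**
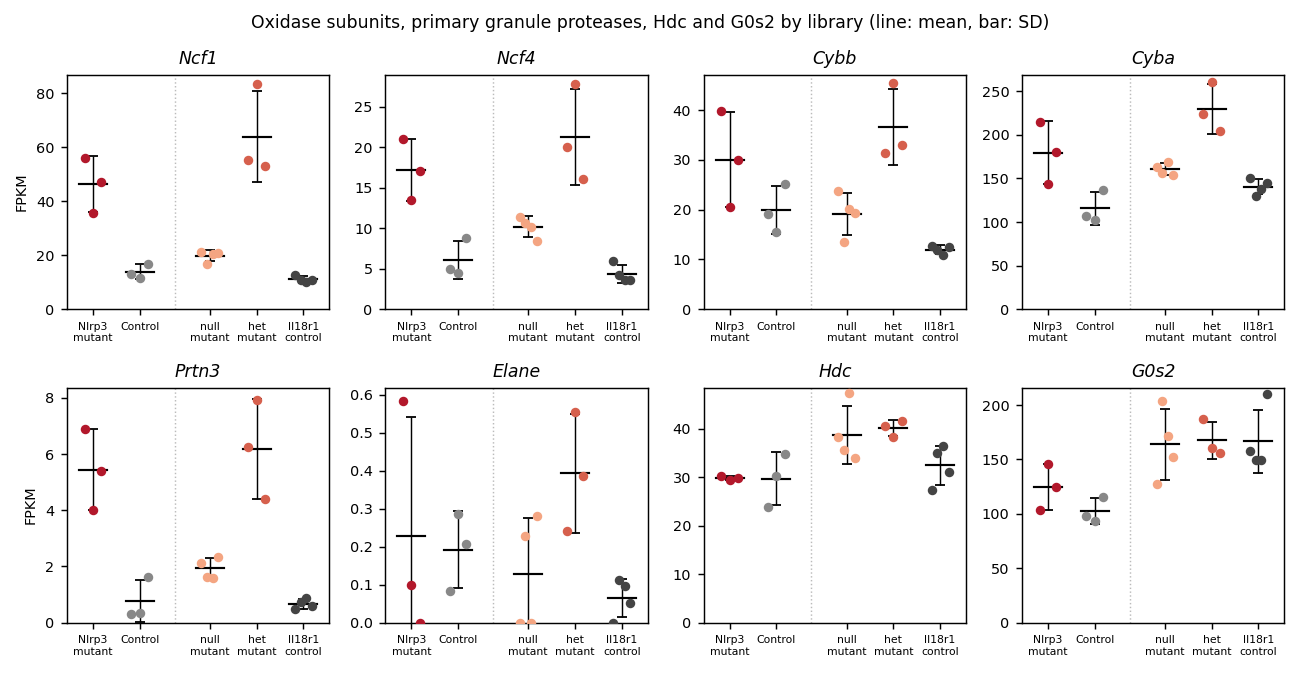
FPKM (y axis from 0, range differing between panels) of the 4 oxidase genes, of Prtn3 and Elane and of Hdc and G0s2 in each library (points), with the mean (line) and SD (bar) of each group. The first experiment is left of the dotted line; Elane stays under 0.6 FPKM throughout, and no groups of Ncf1 overlap within an experiment, while those of G0s2 do and, for Hdc, only het mutant and Il18r1 control lie apart.

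Other genes of the oxidase family gave a mixed picture. Of the 15 other oxidase and NOX or DUOX genes in the tables, 9 were tested in the first experiment, where 4 rose and 0 fell, and 10 in the second. Of the 10 in the second, 6 rose and 1 fell in het mutant against control (27.3% and 28.9%). In null mutant against control 2 rose (1.87%), and in null mutant against het mutant 5 fell and 2 rose (26.5% and 26.8%). Rac2, a small GTPase that takes part in oxidase assembly, averaged 23.1 ± 3.01 FPKM in the null mutant, 48.5 ± 11.1 FPKM in the het mutant and 12.3 ± 1.34 FPKM in the Il18r1 control (SD, n = 4, 3 and 4). It rose in null mutant against control, with a log2 fold change of 0.86 ± 0.13 (SE, adjusted p = 0.00272). Nox4, an oxidase of mesenchymal and endothelial cells, rose in null mutant against het mutant (0.29 ± 0.075 (SE, adjusted p = 0.00587)), and Nox3, Duox1, Duox2, Duoxa1 and Duoxa2 were under 1 FPKM in every library.

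Among the transcription regulators, Cebpe encodes C/EBP epsilon, which is needed for secondary granule genes. It was at 10.5, 5.44 and 7.29 FPKM in Nlrp3 mutant and 1.08, 1.18 and 1.48 FPKM in Control libraries, and the groups were apart (log2 fold change 1.92 ± 0.20 (SE, adjusted p = 1.33e-04)). It was at 2.09, 1.48, 2.61 and 2.35 FPKM in the null mutant and 10.4, 11.1 and 10.1 FPKM in the het mutant. Cebpe was at 0.596, 0.428, 0.481 and 0.393 FPKM in the Il18r1 control. The het mutant libraries were close together and above all others, with a log2 fold change of 1.07 ± 0.11 (SE, adjusted p = 1.25e-04) in null mutant against control and -1.90 ± 0.11 (SE, adjusted p = 2.64e-07) in null mutant against het mutant. Mxd1, a partner of MAX that opposes MYC and marks late maturation, averaged 23.0 ± 3.42 FPKM in the null mutant and 38.5 ± 5.84 FPKM in the het mutant (SD, n = 4 and 3). Mxd1 averaged 14.5 ± 0.717 FPKM in the Il18r1 control (SD, n = 4). It rose by 1.02 on the log2 scale in Nlrp3 mutant and by 0.62 in null mutant against their controls (adjusted p = 8.13e-05 and 0.00612). Gfi1, a repressor that directs progenitors to the neutrophil line, was at most 0.536 FPKM in any library and was not tested, and in the authors' deposited table its log2 fold change in het mutant against control was 0.77 (SE 0.591, adjusted p = 0.301).

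Of 17 other regulators of granulocyte formation, all tested, 12 rose and 3 fell in Nlrp3 mutant against Control (28.0% and 27.6% of all tested genes). In het mutant against control 13 rose and 1 fell (27.3% and 28.9%), and in null mutant against control 2 rose (1.87%). In null mutant against het mutant 11 fell and 1 rose (26.5% and 26.8%). The 2 in null mutant against control were Spi1, which encodes PU.1, with a log2 fold change of 1.07 ± 0.18 (SE, adjusted p = 0.00591), and Csf3r, the receptor of the cytokine G-CSF, with 2.28 ± 0.16 (SE, adjusted p = 7.45e-06). Cebpd, a C/EBP factor of inflammation, rose in Nlrp3 mutant against Control (2.28 ± 0.34 (SE, adjusted p = 8.97e-04)) and in het mutant against control (2.77 ± 0.25 (SE, adjusted p = 2.97e-06)), and its value in null mutant against control was 0.52 ± 0.23 (SE, adjusted p = 0.478), which did not pass. Cebpa, the C/EBP factor of early granulocyte progenitors that lung epithelium also uses, was -0.072 ± 0.071 (SE, adjusted p = 0.827) in that comparison, and Myb, a factor of progenitors, passed in none of the 4.

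Of the 7 enzymes and other products, 5 rose in Nlrp3 mutant against Control (28.0% of all tested genes). In het mutant against control 6 rose (27.3%) and in null mutant against control 5 rose (1.87%). In null mutant against het mutant 4 fell (26.5%). Asprv1, an aspartic protease first known from skin, had a log2 fold change of 6.12 ± 0.17 (SE, adjusted p = 1.08e-09) in het mutant against control, the largest of the members on the log2(FPKM + 1) scale. In the authors' deposited table of that comparison it was 6.78 (SE 0.178), and that of Slfn4 was 6.82 (SE 0.145). It was at 148, 112 and 126 FPKM in Nlrp3 mutant and 3.53, 1.47 and 6.99 FPKM in Control libraries, and at 29.0, 31.0, 27.7 and 20.4 FPKM in the null mutant and 157, 226 and 145 FPKM in the het mutant. Asprv1 was at 1.98, 1.18, 1.54 and 1.39 FPKM in the Il18r1 control. The groups were apart in both experiments, and the log2 fold change was 4.85 ± 0.36 (SE, adjusted p = 3.51e-05) in the first and 3.47 ± 0.15 (SE, adjusted p = 7.26e-07) in null mutant against control. Its neighbour on chromosome 6, 17.3 kb away, is Mxd1, with a log2 fold change of 1.02 in the first experiment and 0.62 in null mutant against control. Slfn4, a Schlafen protein of mouse myeloid cells from a family of related copies, averaged 10.8 ± 4.68 FPKM in the null mutant and 66.7 ± 11.1 FPKM in the het mutant (SD, n = 4 and 3). Slfn4 averaged 0.605 ± 0.0759 FPKM in the Il18r1 control (SD, n = 4), with 2.80 ± 0.22 (SE, adjusted p = 2.13e-05) in null mutant against control.

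Prok2, the secreted peptide prokineticin 2, was at 7.13, 7.58 and 7.04 FPKM in Nlrp3 mutant and 0.0524, 0.0604 and 0.519 FPKM in Control libraries. The mutant libraries were close together and far above Control (2.79 ± 0.15 (SE, adjusted p = 1.08e-05)). Every control library of Prok2 was under 1 FPKM in both experiments, so it passed the filter only through mutant libraries. It was at 7.84, 8.85, 3.69 and 1.33 FPKM in the null mutant and 12.4, 13.8 and 4.28 FPKM in the het mutant. Prok2 was at 0.110, 0, 0.181 and 0.198 FPKM in the Il18r1 control. Null mutant and het mutant libraries overlapped, each group spread widely, and null mutant against het mutant did not pass (-0.87 ± 0.46 (SE, adjusted p = 0.129)), while null mutant against control did (2.31 ± 0.42 (SE, adjusted p = 0.0115)). Without het mutant replicate 3, the lowest of its group, null mutant against het mutant was -1.34 and passed (adjusted p = 0.0281 by limma), and the adjusted p over 13 alternatives was 0.0281 to 0.362.

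Padi4, which citrullinates histones when neutrophils release their chromatin, rose by 1.76 ± 0.18 (SE, adjusted p = 1.30e-04) on the log2 scale in Nlrp3 mutant against Control. It was at 2.26, 1.88, 2.07 and 2.12 FPKM in the null mutant and 7.49, 11.8 and 6.17 FPKM in the het mutant. Padi4 was at 0.909, 0.963, 0.851 and 0.964 FPKM in the Il18r1 control, and the groups did not overlap. Pygl, a glycogen phosphorylase, was at 24.0, 22.2, 21.9 and 21.6 FPKM in the null mutant and 52.6, 81.3 and 48.5 FPKM in the het mutant. Pygl was at 13.6, 14.3, 14.6 and 13.9 FPKM in the Il18r1 control, again without overlap. In null mutant against control Padi4 had a log2 fold change of 0.68 ± 0.14 (SE, adjusted p = 0.0229) and Pygl one of 0.63 ± 0.12 (SE, adjusted p = 0.0175). Leaving out 1 library put the adjusted p of Padi4 above the threshold in 7 of 8 cases and that of Pygl in 4 of 8, with ranges over the alternatives of 3.58e-04 to 0.116 and 2.94e-05 to 0.10.

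Hdc and G0s2 did not follow the rest of the set. Hdc, which encodes histidine decarboxylase, the enzyme that makes histamine, was at 30.3, 29.5 and 29.8 FPKM in Nlrp3 mutant and 23.9, 30.4 and 34.8 FPKM in Control libraries, which overlapped (0.024 ± 0.12 (SE, adjusted p = 0.881)). It was at 38.2, 35.6, 47.3 and 34.1 FPKM in the null mutant and 40.6, 38.4 and 41.7 FPKM in the het mutant. Hdc was at 27.3, 35.0, 36.4 and 31.1 FPKM in the Il18r1 control. Het mutant against control passed (0.31 ± 0.11 (SE, adjusted p = 0.0351)), yet 5 of the 7 fits without 1 library did not pass, and the adjusted p over 13 alternatives was 0.0214 to 0.0960. Markers of mast cells and basophils, which use Hdc, summed to 98.5 to 121 FPKM in Nlrp3 mutant and 105 to 124 FPKM in Control libraries, and to 91.3 to 106 FPKM in the null mutant, 86.0 to 115 FPKM in the het mutant and 100.2 to 112 FPKM in the Il18r1 control. Of 10 such markers 7 were tested, and Tpsab1, Ms4a2 and Fcer1a were under 1 FPKM in every library. Both in Nlrp3 mutant against Control and in het mutant against control 5 fell and 1 rose. Over all tested genes 27.6% and 28.9% fell and 28.0% and 27.3% rose in these comparisons. The part of these markers in the level of Hdc was not tested.

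G0s2, an inhibitor of the triglyceride lipase ATGL, was at 104, 145 and 125 FPKM in Nlrp3 mutant and 97.7, 93.4 and 116 FPKM in Control libraries. It was at 127, 204, 172 and 152 FPKM in the null mutant and 187, 161 and 155 FPKM in the het mutant. G0s2 was at 158, 149, 149 and 209.9 FPKM in the Il18r1 control. The groups overlapped in both experiments. The log2 fold change was 0.27 ± 0.13 (SE, adjusted p = 0.104) in Nlrp3 mutant against Control, -0.030 ± 0.14 (SE, adjusted p = 0.977) in null mutant against control and 0.022 ± 0.15 (SE, adjusted p = 0.915) in het mutant against control, and none passed. Without Nlrp3 mutant replicate 1 it was 0.40 in Nlrp3 mutant against Control and passed (adjusted p = 0.0171 by limma), and the adjusted p over the 11 alternatives was 0.0171 to 0.283.

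Members differed in how far the null mutant stood below the het mutant. For the 33 members at a het mutant mean of 1 FPKM or more, the null mutant mean was 8.01% (Olfm4) to 97.6% (G0s2) of the het mutant mean, with a median of 31.0%. Without het mutant replicate 2, the highest library of that group for Olfm4, Olfm4 was at 13.9%, and Cd177 (11.5%), Ngp (13.1%) and Ifitm6 (13.4%) were lower; no other member moved by over 1.5 times without 1 null mutant or het mutant library. With all libraries the share was under 25% for 13 members, 25% to 50% for 14 and over 50% for 6, which were Cybb, Prok2, Mxd1, Cyba, Hdc and G0s2, and without het mutant replicate 2 it was over 50% for 10. The median was 22.7% over the 8 secondary and gelatinase granule genes, 29.3% over the 10 receptor and membrane genes and 50.1% over the 4 oxidase genes, and no test was made between roles. Cd177 stood at 8.89%, Ngp at 10.3%, Ifitm6 at 10.6% and Ltf at 13.8%, while Retnlg stood at 27.1% and Camp at 34.1%. Library by library, Ngp was at 11.4, 8.21, 14.1 and 7.63% of the het mutant mean in the 4 null mutant libraries and Retnlg at 27.7, 29.9, 29.4 and 21.4%, so these did not overlap. A share of the het mean leaves in the level that the control also has: Camp was at 13.1 FPKM and Retnlg at 5.55 FPKM in the Il18r1 control. Of the 6 members over 50%, control and het mutant means were 140.5 and 229.5 FPKM for Cyba, 12.0 and 36.6 FPKM for Cybb and 14.5 and 38.5 FPKM for Mxd1. They were 0.122 and 10.2 FPKM for Prok2. The het mutant means of Hdc and G0s2 were 1.24 and 1.01 times the control. The medians of the roles therefore include differing control levels.

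**Figure D4:**
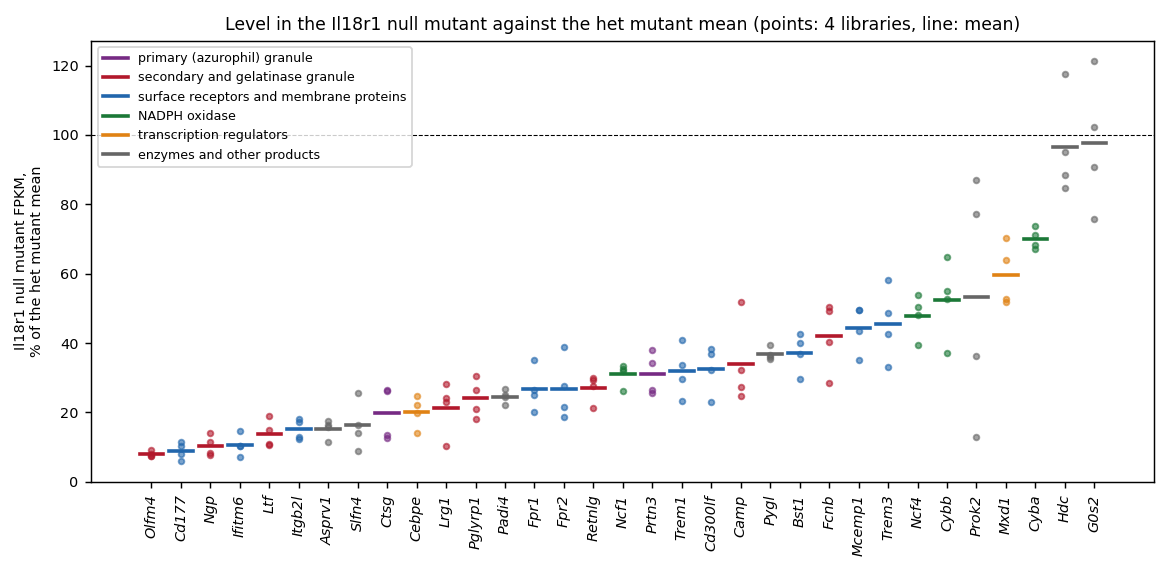
FPKM in the null mutant as a percentage of the het mutant mean (y axis) for 33 members in rising order (x axis), coloured by role; points are the 4 null mutant libraries, lines their mean and the dashed line the het mutant mean. With all libraries Olfm4 and Cd177 stand lowest at 8.01% and 8.89%, while without het mutant replicate 2 Olfm4 is at 13.9% and above Cd177, Ngp and Ifitm6, and Hdc and G0s2 lie about the dashed line.

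Other neutrophil genes, taken from a list of 24 of which 23 were in the tables and all 23 tested, moved with the set. Like the set, this list was chosen with earlier results of these data known, so it is no separate support. In each experiment every control library was under 1 FPKM for 2 of the 23, which passed the filter only through mutant libraries. In Nlrp3 mutant against Control 22 rose and 1 fell (28.0% and 27.6% of all tested genes). In het mutant against control 21 rose and 1 fell (27.3% and 28.9%). In null mutant against control 17 rose and 0 fell (1.87% and 0.102%), and in null mutant against het mutant 21 fell and 1 rose (26.5% and 26.8%). The gene that went the other way was Cxcr4, the receptor that holds neutrophils in the marrow and is also used by other cells, at 88.3 ± 19.8 FPKM in the null mutant, 47.2 ± 6.25 FPKM in the het mutant and 80.9 ± 9.28 FPKM in the Il18r1 control (SD, n = 4, 3 and 4). Chil3, a chitinase-like protein that alveolar macrophages also make, was at 3.96% of its het mutant mean in the null mutant, and Il1r2, the decoy receptor for IL-1, at 6.28%. Csf3r was at 72.4% and fell by 0.41 on the log2 scale in null mutant against het mutant, which did not pass (adjusted p = 0.0613 by limma). Cxcr2, the chemokine receptor by which neutrophils enter tissue, had a log2 fold change of 2.84 ± 0.21 (SE, adjusted p = 1.15e-05) in null mutant against control.

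Genes of dividing cells did not rise with the set. All 14 proliferation genes fell in Nlrp3 mutant against Control and in het mutant against control (27.6% and 28.9% of all tested genes). All 14 rose in null mutant against het mutant (26.8%), and in null mutant against control 0 of 14 passed by limma. Their summed level was 106 to 139.7 FPKM in Nlrp3 mutant and 411 to 456 FPKM in Control libraries. It was 368 to 475 FPKM in the null mutant, 145 to 240.1 FPKM in the het mutant and 355 to 400.2 FPKM in the Il18r1 control. Eosinophil markers summed to 16.7 to 21.2 FPKM in Nlrp3 mutant and 2.37 to 4.71 FPKM in Control libraries. Prg2, Prg3, Epx, Ccr3 and Il5ra were under 1 FPKM in every library. Of the 3 markers tested in this comparison 2 rose, Ear6 and Alox15 (28.0% of all tested genes). Every Control library was under 1 FPKM for these 2, so they passed the filter only through the Nlrp3 mutant. Of 6 markers of blood progenitors tested in the second experiment, 1 rose (Gata1) and 4 fell (Cd34, Kit, Meis1 and Hlf) in het mutant against control (27.3% and 28.9% of all tested genes). In null mutant against het mutant 3 rose and 1 fell (26.8% and 26.5%). Of 6 endothelium markers 4 fell in Nlrp3 mutant against Control (27.6%) and 3 in het mutant against control (28.9%). Of 5 tested erythroid markers 4 and 5 fell in the same comparisons. The part of these cells in the members' values was not tested.

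In the Nlrp3 mutant, Control and het mutant groups the libraries kept much the same order across members, which bears on how the members can be counted. Among members at a group mean of 1 FPKM or more, Nlrp3 mutant replicate 1 was the highest of its group in 28 of 31 and replicate 2 the lowest in 28 of 31. Control replicate 3 was the highest of its group in 26 of 28, het mutant replicate 2 in 30 of 33, and null mutant replicate 4 was the lowest in 20 of 31. The order was less shared at the top of the null mutant, where replicates 1 to 4 were the highest in 11, 9, 10 and 1. In the Il18r1 control they were the highest in 12, 4, 3 and 6 of 25 and the lowest in 3, 9, 5 and 8. Without Control replicate 3, 29 members rose in Nlrp3 mutant against Control, and without Nlrp3 mutant replicate 2, 28 did. Over all genes, 2961 to 3617 rose in this comparison without 1 library. The members are therefore not independent of each other. The 2 experiments were also set side by side, for the 31 members at a mean of 1 FPKM or more in both mutant groups. The ratio of the mutant to the control mean was larger in the second (het mutant) than in the first (Nlrp3 mutant) for 30 of them. The control mean was higher in the first experiment for 27 of the 31. The same counts were not made over all genes, so a trait of the members cannot be told apart from a shift between the experiments. The 2 tables were taken as normalized separately, and this was not tested.

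In the authors' deposited tables of the second experiment, made from counts, 34 of 36 members rose in het mutant against control (23.5% of all genes with an adjusted p), 29 rose in null mutant against control (3.02%) and 31 fell in null mutant against het mutant (22.3%). By the authors' deposited table, Cybb rose in null mutant against control (log2 fold change 0.70, SE 0.167, adjusted p = 0.00130). Fcnb also rose in the authors' deposited table (1.62, SE 0.397, adjusted p = 0.00199). Cyba (0.18, SE 0.065, adjusted p = 0.120) and Ctsg (0.69, SE 0.825, adjusted p = 0.883) did not pass in the authors' deposited table of that comparison.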

How the data were processed

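Whole mouse lung RNA was sequenced as stranded mRNA libraries, and per the submitters' processing notes STAR and the build GRCm38 (mm10) were used. The quantifier and annotation are not given in the sources used here. Expression was deposited as FPKM per gene and library in 2 tables; the unit was inferred from the values, since the headers name none. Of 24354 lines per table, 27 whose name had become a date were left out. For the second experiment the authors deposited 3 tables which, per the file headers, give each gene's mean normalized count and log2 fold change with a standard error and adjusted p-value. Those values were copied, not recomputed. Summary lines in them were left out and held 18.5% of the summed mean count in het mutant against control, 19.1% in null mutant against control and 0% in null mutant against het mutant.

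A gene was tested where 3 or more libraries of its table reached 1 FPKM, leaving 13549 genes of the first table and 13724 of the second. The test was limma (version 3.58.1, in R 4.3.3) on log2(FPKM + 1) with its trend option, adjusted by Benjamini-Hochberg over all genes tested, and a gene passed at an adjusted p under 0.05 whatever its fold. All adjusted p-values not credited to the authors are from this test, and this scale understates the change of low genes. Since each table may have been normalized on its own, libraries were tested against each other only within a table, and the second was fitted with all 11 libraries. Ratios and control means of the 2 experiments were set side by side without a test. The test was checked on simulated data in which few genes changed and each gene varied on its own. In the real libraries many genes passed and members moved together, so that check does not fully cover these data. No interval for counting error was made from FPKM. Promoters are the 250 bases before the start in RefSeq on GRCm38.p6, searched on both strands; positions are from the same build. Figures were drawn with matplotlib 3.10.9 in Python 3.11.15, using pandas 2.3.3 and numpy 2.4.6.

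The members and lists were chosen with earlier results of these data known. Each member is named at least once. Of the other lists, counts and a few genes are given, and 2 results are not reported here. Values in every library are given for the members of each role with the highest means, those near 0 and those that differ from their role, and also for most members where an alternative decides a call. The alternatives left the filter out or raised it to a mean of 5 FPKM, used a pseudocount of 0.1, rescaled libraries by median ratios, fitted the replicate number as a block or 2 groups alone, took null mutant libraries with Y-linked transcripts or with Xist only, and left out each library in turn.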

Additional observations from a re-analysis of the deposited data

Results flagged for a closer look

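G0s2 in Il18r1 control replicate 4 was at 209.9 FPKM, far above the other 3 libraries of its group, which were at 149 to 158 FPKM. It was the only value of the set so far from its group among 72 gene and group pairs with 4 libraries, where chance gives about 1 in 20.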

How the results depend on the processing

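The counts of members that passed stayed within 1.5 times of those reported under every alternative. Without 1 library each, 25 to 29 members rose in Nlrp3 mutant against Control, 25 to 28 in null mutant and 29 to 32 in het mutant against control, and 28 to 30 fell in null mutant against het mutant. Over all genes in these fits, 2961 to 3617, 201 to 264 and 3266 to 3629 rose and 3116 to 3543 fell, in that order. With a mean of at least 5 FPKM the counts of members were 21, 23, 26 and 25 in the same order, where fewer members were tested, and with the replicate block 29, 26, 32 and 30. The replicate numbers did not pair the libraries (correlations of -0.10 to 0.27 between same-numbered libraries, from their deviations). The rescaling and the pseudocount of 0.1 left counts of 26, 27 or 28, 32 and 30. Of the single members' results under the alternatives, 1640 kept direction and side of the threshold, 15 newly passed, 23 no longer passed and 9 changed sign. Those that changed sign were small. The shares of the het mutant mean without 1 library were added after seeing the data. Leaving out 1 library, Hdc ran from -0.12 to 0.14 in Nlrp3 mutant against Control (negative without Control replicate 1), and G0s2 from -0.14 to 0.086 in null mutant against control, from -0.059 to 0.14 in het mutant against control and from -0.16 to 0.062 in null mutant against het mutant. With the null mutant libraries that carry Xist only, G0s2 was 0.074 in null mutant against het mutant, and the cause was not tested. Single values of the opposite sign were -0.026 and -0.025 (without Il18r1 control replicate 2 or 3), 0.084 (without null replicate 1, against control) and 0.029 (without het replicate 1). Over all genes, 256 rose and 14 fell in null mutant against control, against 170 and 7 with a mean of at least 5 FPKM; 6 fell with the replicate block, 23 in the fit of 2 groups only, 8 with Y-linked libraries only and 5 to 12 without 1 library. The number of libraries and the unknown depth behind an FPKM value limit what can be seen for members under 1 FPKM, such as Elane and Gfi1.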
